A study of Mus musculus with 30 samples.

Results

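Chronic unpredictable stress (CUS) in somatostatin (Sst) interneurons of male mice was examined in the 6 libraries whose titles read like dates. These were chosen by title alone: SS04031LL, SS04031RL and SS04031RR from stressed mice, and SS04031R, SST040241L and SST04241LL from nonstressed mice. They make up 6 of the 24 libraries in the deposited expression table, and 6 further labelled samples are not analysed here. All 6 came from male Sst reporter mice on a C57BL/6 background, in which Cre recombinase expressed from the Sst locus switches on the red fluorescent protein tdTomato from the Ai9 allele. CUS mice were exposed to changing mild stressors for 14 days, control mice to none, and both groups carried the same alleles. tdTomato-positive cells were sorted from dissociated medial prefrontal cortex by fluorescence-activated cell sorting (FACS) and their RNA was sequenced. Because any cell that expressed Sst-Cre during development keeps the tag, the sort selects a lineage and not present Sst expression. No label says that libraries of a group came from separate mice or sorts, so the p-values below measure only the spread between these 6 samples.

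Sst interneurons release GABA onto the distal dendrites of pyramidal cells and, with their peptide, dampen the excitatory input these cells receive. Stress acts on cortical cells through glucocorticoid receptors, through activity-dependent transcription of immediate early genes, and through protein-folding and translational stress responses, of which eIF2 phosphorylation with its effectors ATF4 and ATF3 is one. Microglia, the resident macrophages of brain tissue, answer tissue disturbance with cytokines and chemokines, and they also induce immediate early and heat shock genes when tissue is dissociated.

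The values are FPKM (fragments per kilobase of transcript per unit of mapped fragments), a level scaled for gene length and library size. The table gives no read counts, so absolute depth is unknown. From the step between the lowest values, relative depth was 1.00 to 1.21 times that of SST040241L in 5 libraries and 0.815 in SS04031R. Genes above 0.4 FPKM numbered 13295 in SS04031R and 13974 to 14255 in the others. Small nucleolar RNA genes held 53.5% to 75.7% of all FPKM.

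One control library stood apart from the other 5. The log2 ratio of SS04031R to any other library had an SD over genes of 0.635 to 0.714, whereas all pairs without it had 0.258 to 0.330. The first principal component, with 46.3% of the variance, placed SS04031R at 81.6 and the others between -23.6 and -5.81. This library is also the 1 control whose title has the stem SS04031 that all 3 CUS titles share. A comparison within that stem therefore rests on a single control, and the stem and the stress cannot be told apart among the remaining libraries. Values below are with all 3 controls unless stated, and lists and many genes are also given without SS04031R or against SS04031R alone.

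The sorted material did not carry an interneuron profile. Sst FPKM was 4.53, 5.54 and 1.71 in the CUS libraries, 0 in SS04031R, 2.89 in SST040241L and 1.44 in SST04241LL, so the groups overlapped. Gad1, which makes GABA, lay between 0.264 and 0.970 FPKM and the GABA transporter gene Slc32a1 between 0 and 0.537. Only 11 of 24 interneuron markers had a mean above 0.4 FPKM. Their mean log2(FPKM + 1) over all 24 was 0.466 to 0.983 per library, against 7.24 to 8.62 for 20 microglia markers. Cx3cr1, the microglial fractalkine receptor, had 546, 431 and 476 FPKM after CUS and 1253 in SS04031R, 569 in SST040241L and 601 in SST04241LL. Glial markers thus far exceeded interneuron markers in all 6 libraries, and the material is called Sst-sorted by its label only. In bulk material of this kind, fewer cells of a type and less RNA per cell cannot be told apart.

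**Figure D1:**
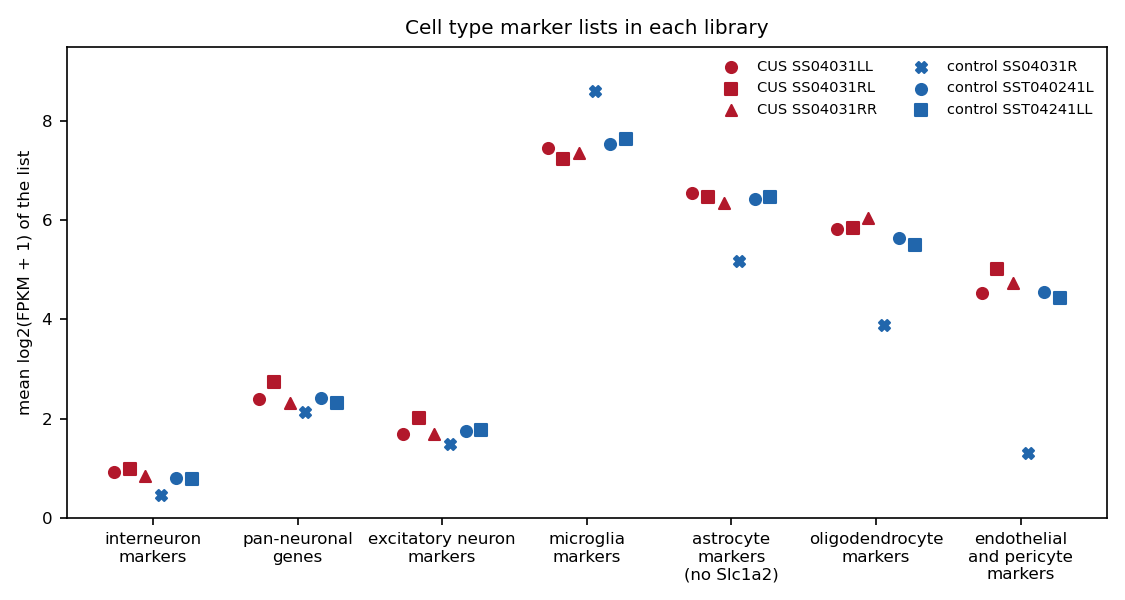
Mean log2(FPKM + 1) of each cell type marker list (vertical axis) in the 6 libraries, with CUS in red and control in blue; Slc1a2 is left out of the astrocyte list. Control SS04031R (cross) is highest for microglia markers at 8.62 and lowest for endothelial and pericyte markers at 1.30, where the other libraries lie between 4.44 and 5.02.

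Control SS04031R differed from the other 2 controls by a median log2 difference of 1.09 over 19 microglia markers, -1.31 over 18 astrocyte markers, -1.63 over 16 oligodendrocyte lineage markers and -3.39 over 15 endothelial and pericyte markers. The part of these markers in the gene results was not tested.

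Expression after CUS was compared with limma on log2(FPKM + 1) in 14186 genes with a mean above 0.4 FPKM. Of these, 1 gene had a Benjamini-Hochberg adjusted p below 0.05 (0.00705% of genes tested), and the next smallest adjusted p was 0.346. At an unadjusted p below 0.05 there were 956 genes (6.74%), 583 higher after CUS and 373 lower. The balance of these depended on scaling: after quantile normalization 517 were higher and 663 lower, and after scaling to a common total without small nucleolar RNA genes 492 were higher and 512 lower. Every CUS library lay above every control in 1323 genes (9.33%) and below every control in 1332 (9.39%). Without SS04031R, 16 of 14208 genes had an adjusted p below 0.05 (0.113%), among them Slc1a2, and 1478 an unadjusted one (10.4%). That count was 1620 without SST040241L, 534 without SS04031LL, 408 without SS04031RL and 404 without SS04031RR. Against SS04031R alone, with its spread taken from the CUS libraries, 33.6% of 14141 genes had an adjusted p below 0.05, 44.4% an unadjusted one, and CUS lay wholly above SS04031R in 37.0% and below it in 41.6%. In a single gene, the smallest two-sided exact permutation p that 3 libraries against 3 allow is 0.1.

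Slc1a2 was the gene past the threshold. It encodes GLT-1, the main glutamate transporter of astrocytes, and spans chr2:102658239-102790784 (GRCm38.p6), where the annotation also places Gm13872 and LOC115489466. Its FPKM was 851, 849 and 779 in the CUS libraries and was listed at 0 in all 3 controls (limma adjusted p = 1.33e-07), so no fold is given. The gene also passed the threshold under the other settings tried, but each setting starts from these zeros, so that adds no support. An exact 0 can be a failed estimate.

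Other astrocyte genes had no such gap. Slc1a3, the second astrocytic glutamate transporter, had 365, 305 and 291 FPKM after CUS and 167 in SS04031R, 362 in SST040241L and 377 in SST04241LL. For Gja1, the gap junction protein connexin 43, the CUS libraries had 305, 259 and 237 FPKM and the controls 114, 283 and 319. In both genes SS04031R was the lowest library and the other 2 controls lay within or above the CUS range. Of the 18 astrocyte markers, Slc1a2 included, 18 were higher after CUS with all 3 controls (median log2 difference 0.41) and 18 against SS04031R alone (median 1.23), but without SS04031R 8 were higher and 10 lower, with a median of -0.02. At an unadjusted p below 0.05, 2 were higher with all controls (11.1%, background 4.11%). Gfap, the intermediate filament of reactive astrocytes, did separate the groups at a low level, with 10.9, 15.6 and 14.6 FPKM after CUS and 5.75, 9.07 and 6.99 in the controls (log2 difference 0.84; 0.70 without SS04031R). Slc1a2 was also listed at 0 in the 4 numbered male and 7 female Sst control libraries of the table and stood between 741 and 1038 FPKM in the 7 Pvalb libraries, so the zeros were not particular to the date-titled controls. Only Slc1a2 was both at 0 in all libraries of a group and above 5 FPKM in all of the other, among 45 tested genes at 0 in all controls and 17 at 0 in all CUS libraries.

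**Figure D2:**
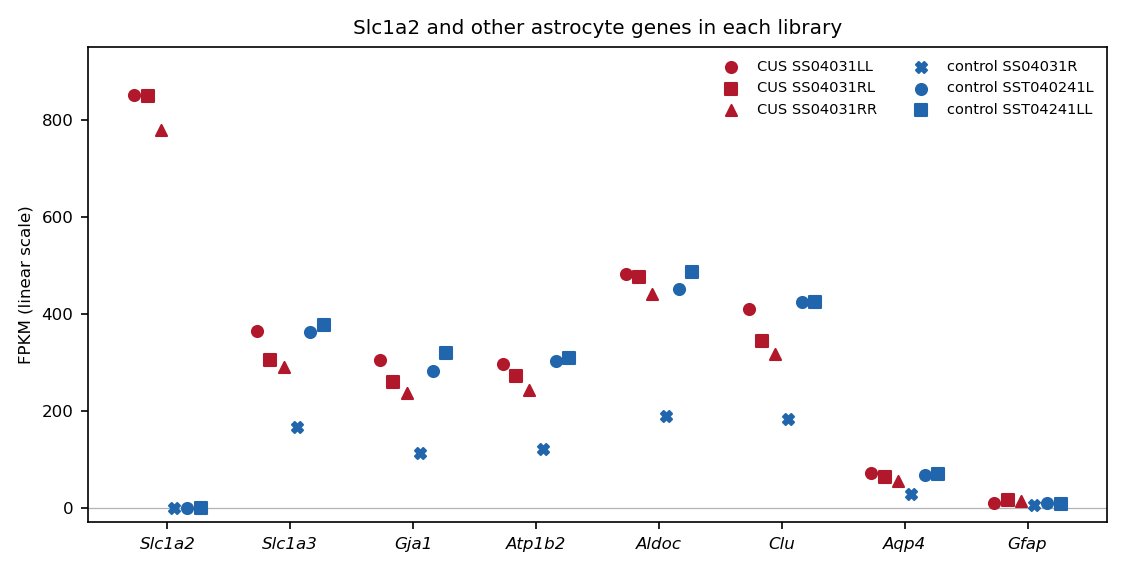
FPKM on a linear scale (vertical axis) of Slc1a2 and 7 other astrocyte genes in the 3 CUS (red) and 3 control (blue) libraries. Slc1a2 lies between 779 and 851 in the CUS libraries and at 0 in the controls, while the other genes are present in all 6 libraries.

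Immediate early genes, which are transcribed within minutes of neuronal firing or of other cell stimulation, lay higher on average after CUS. Of 20 listed genes 18 passed the expression filter, and all 18 had a positive log2 difference (median 0.46, against 0.00 over all genes tested). Of these, 5 had an unadjusted p below 0.05, all higher (27.8%, where 4.11% of all genes tested were higher at that level), and none an adjusted one. In 4 of the 18 every CUS library lay above every control (22.2%, background 9.33%). The count of 5 was 2 without SS04031RL and 1 without SS04031RR or without SST04241LL. Over all genes tested it was 259 of 14108, 241 of 14145 and 707 of 14153 in the same order, against 583 of 14186.

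Nr4a1, an orphan nuclear receptor induced by activity and by inflammatory signals, had 12.96, 29.8 and 32.1 FPKM in the CUS libraries and 7.21 in SS04031R, 6.05 in SST040241L and 5.69 in SST04241LL. The groups did not overlap, and SS04031LL was well below the other 2 CUS libraries. The mean was 25.0 FPKM ± 10.5 (SD, n = 3) against 6.32 ± 0.792, a log2 difference of 1.73 with a standard error of 0.33. It was 1.82 without SS04031R and 1.56 against SS04031R alone. The limma adjusted p of Nr4a1 was 0.647 with all controls and 0.232 without SS04031R.

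Fosb, a subunit of the AP-1 transcription factor that accumulates with repeated stimulation, had 59.0, 65.8 and 82.3 FPKM after CUS and 56.1 in SS04031R, 27.5 in SST040241L and 26.9 in SST04241LL. SS04031R came close to the lowest CUS library while the other 2 controls lay well below. The log2 difference was 0.96 with all controls (limma adjusted p = 0.647), 1.30 without SS04031R (limma adjusted p = 0.0183) and 0.28 against SS04031R alone. Fos, of the same gene family, had 181, 218 and 255 FPKM after CUS and 208, 95.3 and 109 in SS04031R, SST040241L and SST04241LL. The groups thus overlapped through SS04031R. Egr3 and Nr4a3, at low levels of at most 4.19 and 1.95 FPKM, did not overlap between groups, with log2 differences of 0.80 and 0.57 (0.87 and 0.44 without SS04031R). Arc, which acts at the postsynapse, had 8.61, 13.4 and 14.4 FPKM after CUS and 1.63, 8.95 and 5.59 in the controls in the same order, a log2 difference of 1.21 that was 0.67 without SS04031R.

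Which control was used decided how the list as a whole looked. Without SS04031R, 14 of 18 immediate early genes were higher at an unadjusted p below 0.05 (77.8%, background 6.21%) and the median log2 difference was 0.64. Against SS04031R alone 11 were higher and 7 lower, with a median of 0.17. Jun, Egr1 and Btg2, with 691, 493 and 173 FPKM in SS04031R, were higher there than in any CUS library and lower in the other 2 controls than in any CUS library. SS04031R was the control with the highest microglia markers. Its immediate early genes were also high, at a median log2 difference of 0.79 from the other 2 controls. A link between these traits of 1 library was not tested.

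Promoters are shown for Nr4a1, the immediate early gene with the smallest p that held a CRE-like match, and for Atf3, chosen likewise from the eIF2 and ATF4 list. The capitals mark each match to TGACGNA on either strand, a CRE-like site that shares TGACG with the cAMP response element TGACGTCA without containing it. It was 1 of 6 motifs searched and was chosen after these sequences had been seen. Both run 5′ to 3′ on the strand of the gene, from 250 bases before its start, and come from RefSeq on GRCm38.p6: Nr4a1 from chr15:101266596-101266895 on the plus strand and Atf3 from chr1:191183284-191183583 on the minus strand.
Nr4a1: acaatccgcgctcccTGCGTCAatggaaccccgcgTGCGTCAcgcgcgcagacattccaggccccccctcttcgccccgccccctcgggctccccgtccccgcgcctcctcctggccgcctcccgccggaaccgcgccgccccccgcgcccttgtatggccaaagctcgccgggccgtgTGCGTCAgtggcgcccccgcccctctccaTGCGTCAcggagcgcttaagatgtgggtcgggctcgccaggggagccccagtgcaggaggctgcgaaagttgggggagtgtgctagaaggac
Atf3: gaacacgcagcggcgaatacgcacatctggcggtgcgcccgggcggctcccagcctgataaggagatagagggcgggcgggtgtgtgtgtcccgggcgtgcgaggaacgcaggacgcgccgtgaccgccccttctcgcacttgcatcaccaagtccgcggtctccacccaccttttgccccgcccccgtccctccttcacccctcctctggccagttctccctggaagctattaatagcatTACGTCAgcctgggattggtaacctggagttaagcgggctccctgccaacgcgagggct
Nr4a1 held 4 matches and Atf3 1, from 9 to 3 bases before its start. A window with TGACGNA was present in 6 of 16 immediate early genes (37.5%), in 3 of 20 genes of the eIF2 and ATF4 list (15.0%) and in 6.15% of 27025 genes with 32851 windows of the same length. The full cAMP response element was in 1 of the 16 immediate early genes (6.25%, against 2.03% of genes) and the AP-1 site in 0 (against 8.97%). The CArG box of serum response factor was likewise in 1 of the 16 (6.25%, against 1.81% of genes). As TGACGNA was chosen after these sequences had been seen, nothing is read from its share. A match describes these letters only.

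Atf3, a stress-induced transcription factor downstream of eIF2 phosphorylation, had 91.1, 118 and 121 FPKM after CUS and 71.3 in SS04031R, 44.9 in SST040241L and 39.9 in SST04241LL. No CUS library overlapped a control, and SS04031R was again the highest control. The mean ratio was 2.12 and the log2 difference 1.10 with a standard error of 0.25 (limma adjusted p = 0.647), or 1.35 without SS04031R (limma adjusted p = 0.0183) and 0.61 against SS04031R alone. Ppp1r15a, which encodes GADD34 and reverses eIF2 phosphorylation, had 92.2, 106 and 142 FPKM after CUS and 88.1, 51.1 and 52.0 in the controls in the same order. Its log2 difference was 0.85, with limma adjusted p = 0.647 and, without SS04031R, 0.0805.

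The list that holds both genes was split in direction. Of 22 genes for eIF2 subunits, eIF2B subunits, eIF2 kinases and ATF4 targets, 20 were tested, 7 were higher and 13 lower, and the median log2 difference was -0.08. Those higher at an unadjusted p below 0.05 were Atf3, Ppp1r15a and Eif2b2 (15.0%, background 4.11%), and none was lower. Eif2b2, a subunit of the exchange factor eIF2B, had 9.26, 9.06 and 8.72 FPKM after CUS and 6.93, 6.65 and 6.93 in the controls, a narrow gap with a log2 difference of 0.35. Atf4, the central effector, had 81.6, 86.7 and 88.5 FPKM after CUS and 133, 87.1 and 84.9 in the controls, so that only SS04031R differed. For Eif2s1, the alpha subunit that is phosphorylated, the log2 difference was -0.24 and the groups overlapped. Without SS04031R the list median was -0.01, with 9 of 20 genes higher, 5 of them at an unadjusted p below 0.05 (25%, background 6.21%), 1 lower at that level, and Atf3 past adjustment.

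Cytosolic ribosomal protein genes, counted by pathway tools under EIF2 signaling, took their direction from the choice of control. Over 46 genes of the large subunit the median log2 difference was -0.03, and it was 0.08 without SS04031R, -0.33 against SS04031R alone and 0.03 after quantile normalization. The 32 small subunit genes gave -0.03, 0.09, -0.35 and 0.03 in the same order, so the sign depended on the control and the scaling. In the large subunit 1 gene was lower at an unadjusted p below 0.05, Rpl30, with 11.1, 14.2 and 17.0 FPKM after CUS and 43.6, 26.4 and 18.4 in the controls. With all 3 controls, 0 of the small subunit reached that level. Without SS04031R, 34 of 46 large subunit genes were higher, 8 of them at an unadjusted p below 0.05 (17.4%, background 6.21%), and 28 of 32 small subunit genes, 7 of them at that level (21.9%). Against SS04031R alone, 42 and 29 were lower, 26 and 16 of them at that level (56.5% and 50%, background 22.1%). Rps27 had 202 FPKM in SST040241L and at most 6.36 in the others. A set of 5 ribosomal protein genes, Rpl10a, Rpl22l1, Rpl35a, Rpl37a and Rpl36al, had log2 differences from -0.15 to 0.64, and the groups overlapped in all 5 with none below an unadjusted p of 0.05. They stand for genes that the study reported as lower after CUS in male Sst cells, by sequencing and by qPCR. Its sequencing comparison had group sizes of 3 to 7, so it went beyond the libraries used here. These libraries belong to the same study, so the values are not independent evidence of a direction. Of the names the study gives, some match no symbol of the deposited data letter by letter, and Rpl22l1, Rpl35a and Rpl36al are readings of such names. Ribosomal protein genes have many near-identical pseudogenes, and their single values are uncertain.

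Heat shock proteins, the chaperones that refold damaged proteins, were higher in 12 of 14 genes, with a median log2 difference of 0.40. Of these, 6 were higher at an unadjusted p below 0.05 (42.9%, background 4.11%) and none lower, and in 7 every CUS library lay above every control (50%, background 9.33%). The list moved little with the choice of control, at 0.40 without SS04031R and 0.38 against it alone. Without SS04031RR the median was 0.27 and 1 gene was left at an unadjusted p below 0.05, and without SST040241L, SST04241LL or SS04031RL it was 4 genes. In all genes tested 241, 903, 707 and 259 were higher at that level in the same order, and 583 with all 6 libraries. Hspa1b, an inducible HSP70, had 7.85, 9.15 and 9.43 FPKM after CUS and 4.04 in SS04031R, 2.30 in SST040241L and 2.29 in SST04241LL. The groups were apart and the mean ratio was 3.07, with a log2 difference of 1.37, a standard error of 0.22 and limma adjusted p = 0.647 (1.57 and 0.0183 without SS04031R). Its near-identical neighbour Hspa1a had 4.99, 7.67 and 10.0 FPKM against 5.28, 2.31 and 3.84, and reads of the pair cannot be told apart with certainty.

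Hsp90aa1, the stress-responsive HSP90, had 250.4, 306 and 386 FPKM after CUS and 160.4, 221 and 187 in the controls. Hsph1, a nucleotide exchange factor for HSP70, had 20.8, 24.8 and 37.5 FPKM against 9.72, 18.4 and 16.3. In both genes the groups were apart, SS04031R was lowest and SS04031RR highest. Cryab, a small heat shock protein of astrocytes and oligodendrocytes, had 128, 144 and 206 FPKM after CUS and 25.4, 96.3 and 65.4 in the controls. Its log2 difference of 1.5 became 0.97 without SS04031R, the library with the lowest astrocyte and oligodendrocyte markers. Whether these markers account for the change was not tested.

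Promoters of Hspa1b and Hsph1 are shown as the heat shock genes with the smallest p that held a heat shock element. The capitals mark matches to GAANNTTC or TTCNNGAA, a pair of facing heat shock factor units, which in Hsph1 overlap at the end of the window. Hspa1b was read from chr17:34959189-34959488 and Hsph1 from chr5:149636287-149636586, both on the minus strand of GRCm38.p6 and from RefSeq.
Hspa1b: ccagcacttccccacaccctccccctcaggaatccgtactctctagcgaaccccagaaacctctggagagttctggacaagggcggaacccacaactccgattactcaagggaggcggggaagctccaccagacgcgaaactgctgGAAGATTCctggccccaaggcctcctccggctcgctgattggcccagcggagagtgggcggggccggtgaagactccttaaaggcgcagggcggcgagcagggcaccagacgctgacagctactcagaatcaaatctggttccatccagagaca
Hsph1: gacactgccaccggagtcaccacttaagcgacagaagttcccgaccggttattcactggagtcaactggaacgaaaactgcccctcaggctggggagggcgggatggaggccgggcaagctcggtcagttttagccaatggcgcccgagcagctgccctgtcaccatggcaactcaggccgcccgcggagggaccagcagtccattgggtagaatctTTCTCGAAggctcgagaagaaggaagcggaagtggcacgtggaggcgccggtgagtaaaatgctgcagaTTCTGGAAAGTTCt
Hspa1b held 1 match and Hsph1 3 in the shown 1 of its 2 windows. Such a match was present in 8 of 10 heat shock genes found (80.0%) and in 17.0% of all genes. The list was drawn up as heat shock genes, so nothing is read from this share.

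**Figure D3:**
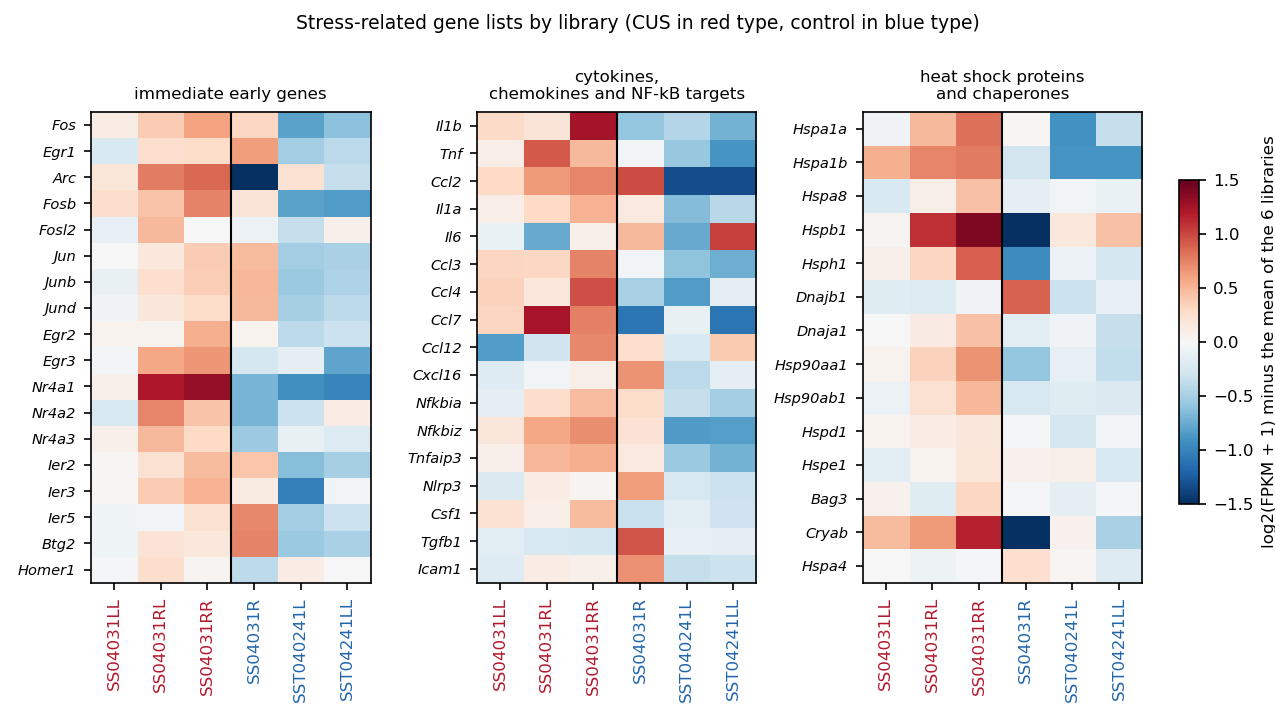
Difference of log2(FPKM + 1) from the mean of the 6 libraries for each tested immediate early, cytokine and NF-kB, and heat shock gene (rows) in each library (columns), with CUS left of the black line. Controls SST040241L and SST04241LL are mostly below the mean, whereas SS04031R is above it in many immediate early genes, such as Btg2 at 173 FPKM against at most 119 elsewhere.

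Cytokines, chemokines and NF-kB targets had, with all 3 controls, the highest share of genes higher at an unadjusted p below 0.05 among the lists examined; without SS04031R that share was higher in immediate early genes. Of 22 genes 17 were tested, 12 higher and 5 lower, with a median log2 difference of 0.61. At an unadjusted p below 0.05, 9 were higher (52.9%, background 4.11%) and none lower, and no gene passed after adjustment. The count of 9 was 6 without SS04031RL, SS04031RR, SST040241L or SST04241LL, that is, without 4 of the 6 libraries in turn. Over all genes tested the count was 259, 241, 903 and 707 in the same order, against 583 with all 6 libraries. Without SS04031R, 12 of 18 were higher at that level (66.7%, background 6.21%), with a median of 0.73, and 3 passed with adjustment. Against SS04031R alone 10 were higher and 8 lower, with a median of 0.19.

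Ccl3, a chemokine that microglia release, had 54.8, 54.4 and 73.4 FPKM after CUS and 42.1 in SS04031R, 28.4 in SST040241L and 25.7 in SST04241LL. Its log2 difference was 0.92 with a standard error of 0.22 (limma adjusted p = 0.647), and 1.13 without SS04031R (limma adjusted p = 0.0399). Ccl4, next to it on chromosome 11 and overlapping it in the annotation, had 19.4, 16.9 and 30.2 FPKM against 10.4, 7.98 and 13.4. Both genes separated the groups, with SS04031RR highest.

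The cytokine Il1b had 2.40, 2.17 and 5.61 FPKM after CUS and 0.864, 1.05 and 0.701 in the controls, a log2 difference of 1.15. Tnf, the tumour necrosis factor, had 14.8, 26.8 and 19.6 FPKM against 13.3, 8.91 and 6.96, a log2 difference of 1.00. The ligand of the microglial survival receptor, Csf1, had 12.3, 11.1 and 14.8 FPKM against 7.97, 9.21 and 8.18, a log2 difference of 0.53. These 3 genes did not overlap between groups. Nfkbiz and Tnfaip3, which feed back on NF-kB, had 37.0 and 31.5 FPKM in SS04031R, above the lowest CUS library, and at most 17.6 and 19.0 in the other controls. Ccl2, a monocyte chemoattractant, had 6.05, 7.95 and 8.58 FPKM after CUS, 10.4 in SS04031R and 1.29 in each of the other 2 controls. Its log2 difference was 1.89 without SS04031R (limma adjusted p = 0.0183) and -0.43 against SS04031R alone.

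Promoters of Csf1 and Tnfaip3 are shown as the genes of the list with the smallest p that held an NF-kB match, in Tnfaip3 in 1 of 2 windows. The capitals mark GGGNNTTTCC on either strand, in Csf1 at chr3:107760420-107760719 and in Tnfaip3 at chr10:19015361-19015660, both on the minus strand of GRCm38.p6 and from RefSeq.
Csf1: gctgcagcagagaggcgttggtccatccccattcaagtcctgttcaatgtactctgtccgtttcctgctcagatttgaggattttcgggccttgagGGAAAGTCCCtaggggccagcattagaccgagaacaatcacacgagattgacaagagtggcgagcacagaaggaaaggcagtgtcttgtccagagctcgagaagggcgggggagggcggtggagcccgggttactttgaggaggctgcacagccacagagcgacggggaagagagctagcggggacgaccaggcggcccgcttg
Tnfaip3: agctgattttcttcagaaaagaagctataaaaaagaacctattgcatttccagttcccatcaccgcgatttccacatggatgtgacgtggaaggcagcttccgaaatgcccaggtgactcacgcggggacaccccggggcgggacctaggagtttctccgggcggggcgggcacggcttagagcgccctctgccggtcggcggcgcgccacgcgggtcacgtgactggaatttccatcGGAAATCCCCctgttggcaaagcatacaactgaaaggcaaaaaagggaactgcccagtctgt
It was found in 6 of 16 genes of the list (37.5%) and in 1.89% of all genes. The AP-1 site was in 4 of the 16 (25.0%, against 8.97% of genes). The list was drawn up with NF-kB targets in it, so nothing is read from the share of NF-kB matches.

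Levels in unstressed libraries outside the date-titled set covered a wide range for these genes. The 4 numbered Sst male controls had 107 to 153 FPKM of Atf3 (median 139), 5.11 to 50.5 of Nr4a1 (median 29.3), 2.63 to 6.44 of Hspa1b (median 6.11), 100.0 to 313 of Ccl3 (median 213) and 307 to 339 of Fos (median 338). The sets also differed in Gapdh, a glycolytic enzyme often used as a reference, which lay at 116 to 141 FPKM in the 6 date-titled libraries and at 465 to 568 in the numbered controls. The values are therefore given side by side only.

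Glucocorticoid receptors and their target genes had no common direction as a list. Of 14 genes 8 were higher and 6 lower, with a median log2 difference of 0.08 that turned to -0.09 without SS04031R. At an unadjusted p below 0.05, 1 was higher and 1 lower (7.14% each, background 4.11% and 2.63%). Without SS04031R 3 were higher at that level (21.4%, background 6.21%) and 0 lower. Fkbp5, a co-chaperone that glucocorticoid receptor induces, had 6.50, 6.90 and 6.26 FPKM after CUS and 25.5 in SS04031R, 7.12 in SST040241L and 13.2 in SST04241LL. The CUS libraries were alike and below all controls, while the controls were far apart. The log2 difference was -0.94 with a standard error of 0.39 (limma adjusted p = 0.647) and -0.51 without SS04031R. Cdkn1a, the cell cycle inhibitor p21, was higher after CUS with 3.08, 3.45 and 3.41 FPKM against 2.001, 1.51 and 0.813, a log2 difference of 0.85. The receptor gene Nr3c1 had 36.0, 37.1 and 40.2 FPKM against 48.8, 40.2 and 35.1.

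**Figure D4:**
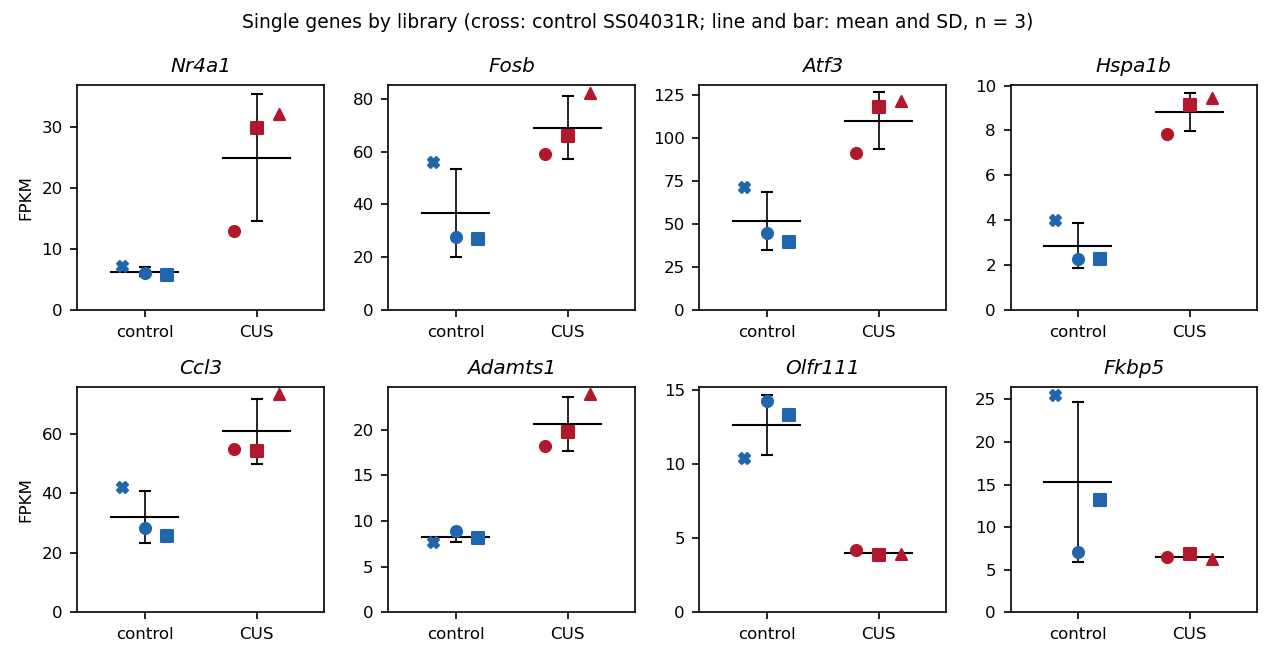
FPKM of 8 genes in 3 control (blue) and 3 CUS (red) libraries, with the mean as a line and the SD as a bar (n = 3). Groups are apart in all 8 genes, and control SS04031R (cross) is the control nearest to the CUS libraries in Nr4a1, Fosb, Atf3, Hspa1b, Ccl3 and Olfr111, with 10.4 FPKM of Olfr111 against at most 4.20 after CUS.

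The lowest unadjusted p after that of Slc1a2 belonged to Olfr111, an olfactory receptor gene on chromosome 17 of GRCm38.p6 from 37525753 to 37537652. It had 4.20, 3.85 and 3.95 FPKM after CUS and 10.4 in SS04031R, 14.3 in SST040241L and 13.3 in SST04241LL. Unstressed libraries outside the date-titled set were below these controls. They had 0 to 9.24 FPKM in 4 numbered Sst males (median 1.16), 1.06 to 8.35 in 7 Sst females (median 2.89) and 1.99 to 4.99 in 7 Pvalb males. These values too are given side by side only. The CUS values had an SD of 0.179 FPKM, and the log2 difference was -1.44 with a standard error of 0.17 (limma adjusted p = 0.346; without SS04031R, 0.0161). Adamts1, a secreted protease that cuts proteoglycans, had 18.2, 19.7 and 23.9 FPKM after CUS and 7.75, 8.94 and 8.16 in the controls. Here SS04031R did not differ from the other controls, and the log2 difference of 1.21 (limma adjusted p = 0.346) kept between 1.11 and 1.29 when any library was left out.

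Further genes lower after CUS with groups apart included Adrb1, the beta-1 adrenergic receptor, with 6.33, 6.61 and 3.55 FPKM against 16.0, 10.1 and 13.8. The galactosyltransferase genes B3galnt1 and B3galt4 were lower by log2 differences of -1.02 and -0.97, and Evi2b, a leukocyte membrane protein, by -1.14. The C-type lectin receptor gene Clec4a3 of myeloid cells had 26.3, 21.6 and 31.6 FPKM against 71.1, 34.2 and 45.4. In B3galnt1, B3galt4 and Clec4a3 SS04031R was the highest library.

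Several of the 12 largest positive differences by rule were in genes almost silent in SS04031R, but Nr4a1 and Cryab, also among the 12, were not. Bfsp2, Cyyr1, Egfl7, Eltd1, Fxyd5 and Sox18 were among the 12 as well, and their values are not given here. Palmd, which encodes palmdelphin, had 19.4, 24.2 and 25.1 FPKM after CUS and 1.00 in SS04031R, 12.3 in SST040241L and 13.6 in SST04241LL. Alas2, which starts heme synthesis in red cell precursors, had 10.0, 17.8 and 10.8 FPKM against 0.412, 4.15 and 4.15. Without SS04031R their log2 differences went from 1.70 to 0.77 and from 2.01 to 1.39. The alpha-globin gene Hba-a1, also of red cells and with a near-identical copy but not among the 12, had 420.5, 496 and 407 FPKM against 11.9, 230.2 and 219. Hist1h2af, a histone gene with close copies, had 4.79, 8.61 and 2.49 FPKM against 0, 0.699 and 0, and Smco3 had 9.37, 10.4 and 12.1 against 1.45, 4.52 and 4.08. With controls at or near 0, Hist1h2af passed the expression filter through the CUS libraries, so nothing is read from it.

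Leaving out SS04031R brought 16 genes past the adjusted threshold, 14 higher and 2 lower. Those in the lists above were Fosb of the immediate early genes, Atf3 of the eIF2 and ATF4 list, Hspa1b of the heat shock genes, Ccl2, Ccl3 and Nfkbiz of the cytokine list, and Slc1a2 of the astrocyte markers. Others were Adamts1, Zfp36 (an RNA-binding protein that destabilises cytokine transcripts), Rcan2 (a calcineurin inhibitor), Il33 (a glial alarmin), Bcl2a1b, Hba-a1 and Snord104, with Olfr111 and Gm5512 lower. These names were taken from the outcome of that fit. In 10 of the 16 the CUS libraries were also apart from SS04031R in the same direction, 9 above and 1 below, where 37.0% of all genes lay above SS04031R and 41.6% below, and 11 had an unadjusted p below 0.05 with all controls (background 6.74%). The 16 had been picked on the same CUS libraries, so nothing is read from these counts. Zfp36 and Bcl2a1b had 356 and 78.6 FPKM in SS04031R, higher than in any CUS library.

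Cell type markers moved with the comparison as well. All 19 tested microglia markers were lower after CUS (median log2 difference -0.62; 13 with groups apart, 68.4%, background 9.39%), 1 of them, Selplg, at an unadjusted p below 0.05 (5.26%, background 2.63%). Without SS04031R 18 of 19 were lower, with a median of -0.27, and 12 at an unadjusted p below 0.05 (63.2%, background 4.19%). It was 9 without SST040241L, 2 without SST04241LL and 0 without any 1 of the CUS libraries. Over all genes tested 717, 460 and, without a CUS library, 149 to 181 were lower at that level, against 373 with all 6 libraries. Selplg, a selectin ligand of myeloid cells, had 251, 227 and 245 FPKM after CUS and 635, 301 and 349 in the controls. Summed FPKM of the 20 microglia markers ranged from 5059 to 5997 after CUS, was 14276 in SS04031R and reached 6373 and 7034 in the other controls.

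All 16 oligodendrocyte lineage markers were higher after CUS (median 0.90, and 0.40 without SS04031R), 6 at an unadjusted p below 0.05 (37.5%, background 4.11%) and 10 of 16 without SS04031R (62.5%, background 6.21%). The count of 6 was 1 without SS04031LL or SS04031RL, 0 without SS04031RR and 12 without SST040241L. Over all genes tested the count higher was 353, 259, 241 and 903 in the same order, against 583 with all 6 libraries. Mbp, a myelin protein, had 243, 285 and 280.1 FPKM after CUS and 51.9, 173 and 146 in the controls. All 15 endothelial and pericyte markers were higher after CUS with a median of 1.43 that became 0.31 without SS04031R, and 1 of them, Kdr, was at an unadjusted p below 0.05 (6.67%, background 4.11%). In 7 the CUS libraries lay above all controls (46.7%, background 9.33%). Without SS04031R 12 of 15 were higher, 6 of them at an unadjusted p below 0.05 (40%, background 6.21%), and 1 was lower at that level. Kdr, a VEGF receptor, had 14.5, 23.4 and 19.2 FPKM against 2.52, 11.7 and 11.9. Of 24 interneuron markers 11 passed the expression filter, and 10 of these were higher, while without SS04031R it was 10 of 13. Dlx1, a transcription factor of the GABA lineage, had 1.59, 1.41 and 1.44 FPKM against 0.190, 0.0774 and 0.232. Its log2 difference was 1.09 (limma adjusted p = 0.647). All control values of Dlx1 lay below 0.4 FPKM, so it passed that filter through the CUS libraries alone. At such low levels nothing is read from this gene or from the count. The part of these marker shifts in the stress gene results was not tested.

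**Figure D5:**
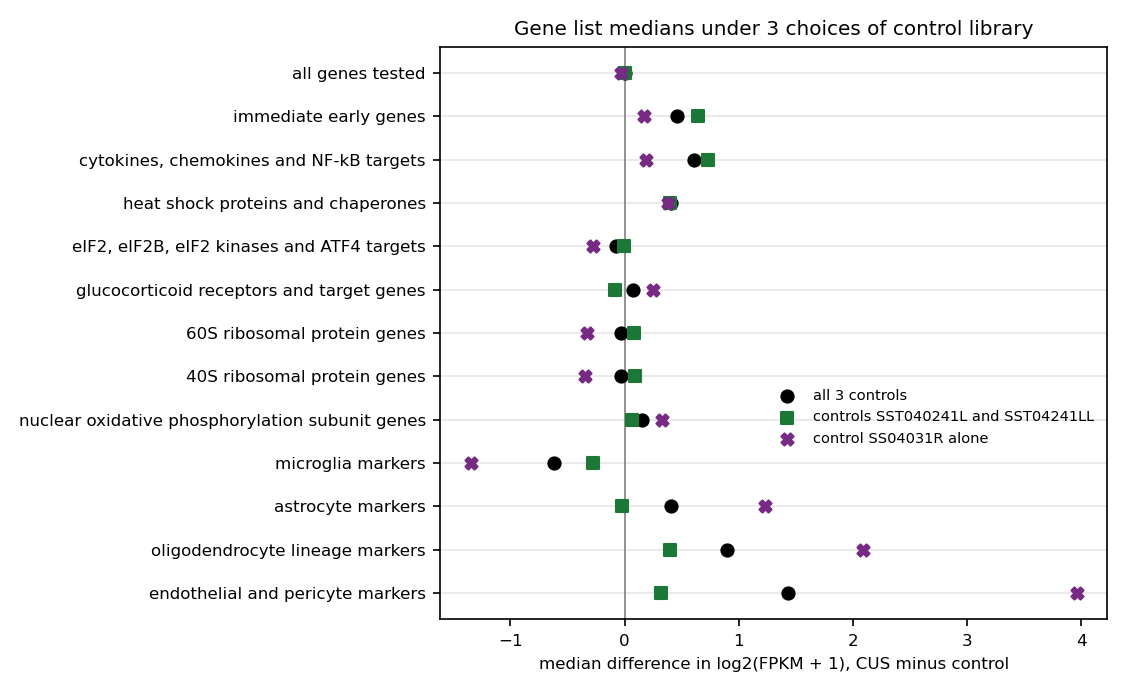
Median difference in log2(FPKM + 1) between CUS and control libraries (horizontal axis) for all tested genes and 12 gene lists, with all 3 controls (circles), without SS04031R (squares) and against SS04031R alone (crosses). Heat shock genes stay between 0.38 and 0.40, immediate early genes range from 0.17 to 0.64, and endothelial and pericyte markers from 0.31 to 3.96.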

How the data were processed

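RNA of FACS-sorted tdTomato-positive cells was depleted of ribosomal RNA and sequenced. The authors deposited a table of FPKM for 23993 genes and 24 libraries, without counts, so depth is known only relatively. The study methods name HISAT2 and StringTie on mm10 (and TopHat2 with an older build), the submitters' processing notes TopHat2, Cufflinks and Cuffdiff on mm10. Which of these made the table, whether strand was used, and whether ComBat was applied to it, are not given in the sources used here. Samples beyond a set distance from the group mean had been removed by the authors.

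Values were compared as log2(FPKM + 1), so differences of low genes are understated. The 6 libraries were fitted for genes averaging over 0.4 FPKM with limma 3.58.1 (R 4.3.3; eBayes with trend and robust, two-sided, Benjamini-Hochberg over all genes tested). DESeq2, named in the study methods, needs counts and was not run. On simulated data of the same size (14186 genes, 200 changed), 41% of genes changed by log2 1 and 75% of those changed by log2 2 were called, with 8 false calls. Genes were drawn independently with the same spread in both groups, and changed genes only from those with a mean log2(FPKM + 1) above 2. No simulated library stood apart as SS04031R does, so these rates do not give the power of the comparison made here. The text names genes past the adjusted threshold, genes from the 12 largest differences in each direction (unadjusted p below 0.05, groups apart, a mean above 5 FPKM in the higher group, no group at 0, no predicted or small RNA genes), genes at 0 in a whole group and above 5 FPKM in all of the other, Sst, the qPCR genes, and from each list its first 3 members and the 4 with the smallest p. Other genes in the text were named after their values were seen. The members and lists were chosen with earlier results of these data known. Alternatives were other pseudocounts, filters, scalings and limma settings, the stem control alone, and leaving out each library. Positions and promoters are from RefSeq GRCm38.p6, in which 22499 of the gene symbols were found.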

Additional observations from a re-analysis of the deposited data

How the results depend on the processing

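Leaving out each library gave 1 to 16 genes at an adjusted p below 0.05, 404 to 1620 at an unadjusted one and 3605 to 4705 with groups apart, where fewer libraries make non-overlap more frequent; the 16 came without control SS04031R and the 1620 without SST040241L. The counts at an unadjusted p were 408 without SS04031RL and 404 without SS04031RR. Array weights gave 13 and 1774 genes, and SS04031R as the lone control, assumed to vary like the CUS libraries, gave 4758, 6274 and 11113. The cause was not tested. Of 76 named genes, 61 kept their sign under all 16 settings. A gene named because its groups did not overlap cannot change sign when a library is left out or against SS04031R alone. That count is therefore fixed in part by the choice of genes. With array weights Slc1a3 (-0.18), Gja1 (-0.16), Aqp4 (-0.076), Nr3c1 (0.025), Rpl10a (0.019) and Rpl35a (0.010) changed sign. Against SS04031R alone Egr1 (-0.52), Jun (-0.29), Btg2 (-0.64), Ddit3 (-0.23), Ccl2 (-0.43), Rpl22l1 (-0.20), Rpl36al (-0.16), Zfp36 (-0.22) and Bcl2a1b (-0.66) did. Leaving out 1 library at a time moved the log2 difference from -0.21 to 0.37 in Slc1a3, -0.18 to 0.56 in Gja1, -0.11 to 0.53 in Aqp4, -0.0076 to 0.57 in Egr1, -0.033 to 0.62 in Btg2, -0.23 to 0.0054 in Nr3c1, -0.27 to 0.0082 in Rpl10a and -0.18 to 0.00070 in Rpl35a. No paired analysis was possible because the titles of these libraries give no shared replicate numbers. With no counts, depth limits genes of low FPKM by an unknown amount.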

Other observations

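Gene groups outside the main lists varied in direction and in how they moved with the choice of control. Nuclear genes for oxidative phosphorylation, the respiratory chain and ATP synthase, were higher after CUS in 60 of 82, with a median log2 difference of 0.16, and in 47 of 82 without SS04031R, with a median of 0.07. At an unadjusted p below 0.05, 5 were higher (6.1%, background 4.11%) and 1 lower. Ndufa5, a complex I subunit, had 44.4, 44.4 and 47.2 FPKM after CUS and 26.6, 26.8 and 37.7 in SS04031R, SST040241L and SST04241LL, so the groups were apart. Interferon-stimulated genes were higher in 15 of 19, with 3 at an unadjusted p below 0.05 (15.8%, background 4.11%) and 1 lower. Without SS04031R 11 of 19 were higher, 1 at that level (5.26%, background 6.21%). Without SS04031RL or SS04031RR 0 were higher at that level, where 259 and 241 of all genes tested were. Isg15, a ubiquitin-like modifier, had 2.09, 3.74 and 4.97 FPKM against 0.867, 1.75 and 1.75, while Bst2, the virus tether tetherin, had 7.35, 11.3 and 6.42 against 17.0, 12.4 and 11.7. The unfolded protein response genes of the endoplasmic reticulum were lower in 12 of 16, none below an unadjusted p of 0.05, and split 8 and 8 without SS04031R.

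Disease-associated microglia genes were higher in 7 and lower in 7 of 14. At an unadjusted p below 0.05, 1 was higher (7.14%, background 4.11%) and 0 lower. Without SS04031R 2 of 15 were higher at that level (13.3%, background 6.21%) and 4 lower (26.7%, background 4.19%). Fth1, the ferritin heavy chain, had 604, 647 and 732 FPKM after CUS and 473, 487 and 478 in the controls, with little spread among the controls. Genes of antigen presentation were higher in 5 and lower in 8 of 13, and H2-Eb1, an MHC class II chain, had 0.693, 0.557 and 1.08 FPKM against 0, 0 and 0.27. Replication-dependent histone genes, many with near-identical copies, were higher in 21 and lower in 27 of 48. Without SS04031R 29 of 47 were higher, 7 at an unadjusted p below 0.05 (14.9%, background 6.21%). At that level 2 were lower (4.26%, background 4.19%). Hist1h3a had 1.61, 3.08 and 2.23 FPKM after CUS and was listed at 0 in all 3 controls (limma adjusted p = 0.346). All control values of Hist1h3a and of H2-Eb1 lay below 0.4 FPKM. Both passed that filter through the CUS libraries alone, so nothing is read from them. Small nucleolar RNA genes were higher in 24 and lower in 32 of 56. Snora24, which lies within its host gene Snhg8, had 97.3, 378 and 169 FPKM against 684, 805 and 556. GABA-A receptor, transporter and GABA enzyme genes were higher in 12 of 12 with none below an unadjusted p of 0.05, and in 8 of 12 without SS04031R.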
